A study of Schizosaccharomyces pombe with 6 samples.

Results

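MBF targets are the fission yeast (Schizosaccharomyces pombe) genes switched on at the start of S phase by the MBF transcription complex. Rad52 chromatin immunoprecipitation (IP) on tiling arrays was examined at 10 of them: suc22, cdc22, cdc18, cdt1, mik1, cig2, mrc1, rad21, nrm1 and yox1. Members were the array probes that overlap one of these genes or lie within 500 bp of it. The genes were listed by name and not by a cut-off on signal, but with earlier results of these data known. Of the 10 genes 8 could be measured, out of 10390 gene windows in all, with 93 of the 42707 probes. cdc22 and mrc1 lie on chromosome I beyond 3.7 Mb, where the array's coordinates are shifted against the annotation used here, and were not analysed here.

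The study compared 3 arrays labelled ∆rad3 with 3 labelled WT. All 6 arrays come from cells with the cdc25-22 mutation, which makes the mitotic inducer Cdc25 fail at high temperature, so WT here names that mutant with rad3 not deleted, per the labels. ∆rad3 cells lack Rad3, the checkpoint kinase related to human ATR. Both strains were held for 4 h at 36.5 °C to block entry into mitosis, released at 25 °C, given 6 mM hydroxyurea (an inhibitor of ribonucleotide reductase that slows forks), and collected 60 min after release. The labels of ∆rad3 and of WT replicate 3 place the hydroxyurea 10 min after release, and those of the other WT arrays give no time. Every array compared IP DNA with its input DNA, and a value is the log2 of IP over input with the array's median probe at 0. Without a mock IP on any array, background pull-down is part of each level. Whether replicates are separate cultures is not stated in the labels, and the p-values reflect no more than the scatter of these arrays.

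MBF is built on Cdc10 with the DNA-binding subunits Res1 and Res2, and it binds MluI cell-cycle boxes, whose core is ACGCG, upstream of its targets. Its targets supply S phase with deoxynucleotides, origin-licensing factors, cyclin and cohesin, and also include the corepressors Nrm1 and Yox1, which turn MBF off as S phase ends. When forks stall, the Rad3 and Cds1 kinases act on these corepressors and MBF transcription stays on. Rad52 is a homologous recombination protein that is recruited to damaged or collapsed forks.

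A check of the deleted gene came first. Over 9 probes inside rad3, the input signal stood at -5.50, -6.15 and -5.48 (log2 against the array median) on the ∆rad3 arrays. On the arrays labelled WT it was -0.41 in replicate 1, -6.17 in replicate 2 and -0.64 in replicate 3. The library labelled WT replicate 2 therefore goes against its label. Its missing stretch was longer than that of ∆rad3: over a run of 24 probes around it, 15 were well above background on each ∆rad3 array and 0 on this library, against 24 on the other arrays labelled WT. Strain differences of the members, lists and described probes are also given without it. Correlations between arrays over gene windows were 0.65 to 0.74 among ∆rad3 arrays and 0.34 to 0.55 among arrays labelled WT. Between strains they were 0.16 to 0.58, and arrays of the same slide reached 0.50, 0.58 and 0.56, so slide 2 and slide 3 pairs correlated more than any pair of WT arrays. At the 93 member probes the input was well above background for 91 to 93 probes on each array, and the IP for 89 to 93.

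The upstream sequences show which members carry the core letters of the MBF box. The pentamer ACGCG was searched on both strands in the 500 bp before each annotated start. The hexamer ACGCGT contains the pentamer and reads the same on both strands, and it was also counted. ACGCG was found in 8 of the 10 members, each with at least 2 matches, against 15.8% of 5113 protein-coding genes with at least 1 match and 5.50% with at least 2. ACGCGT was found in 4 of the 10 members (cdc22, mrc1, cdt1 and yox1), against 4.01% of the same genes. suc22 and mik1 had no ACGCG in that stretch, and mik1 had 9 matches in its 401-bp annotated 5′ UTR. The 140 bases before the start are shown for 4 measured members with clustered boxes and for suc22, which has none, from the RefSeq ASM294v3 genome. They read 5′ to 3′ on the gene's own strand, with every ACGCG or its reverse complement CGCGT in capitals. The coordinates are chrII:2217985-2218124 (minus strand) for cdc18, chrII:477252-477391 (plus) for cdt1, chrI:2709642-2709781 (plus) for cig2, chrII:4285804-4285943 (plus) for nrm1 and chrII:3721483-3721622 (plus) for suc22.
cdc18: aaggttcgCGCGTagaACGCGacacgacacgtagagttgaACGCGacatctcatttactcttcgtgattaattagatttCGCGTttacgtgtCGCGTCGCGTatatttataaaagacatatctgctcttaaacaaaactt
cdt1: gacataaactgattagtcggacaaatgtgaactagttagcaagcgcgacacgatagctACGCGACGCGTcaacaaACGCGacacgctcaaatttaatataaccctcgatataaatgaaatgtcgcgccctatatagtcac
cig2: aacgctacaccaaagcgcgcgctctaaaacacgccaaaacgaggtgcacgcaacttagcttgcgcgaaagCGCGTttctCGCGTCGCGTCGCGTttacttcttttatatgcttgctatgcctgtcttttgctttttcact
nrm1: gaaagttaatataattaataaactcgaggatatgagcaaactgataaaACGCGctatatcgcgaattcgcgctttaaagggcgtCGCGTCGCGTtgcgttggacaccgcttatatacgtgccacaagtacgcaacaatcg
suc22: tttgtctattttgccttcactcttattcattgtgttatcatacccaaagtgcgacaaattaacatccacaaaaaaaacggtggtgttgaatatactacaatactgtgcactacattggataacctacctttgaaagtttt
cdc18 held 6 matches in the stretch shown, between 39 and 132 bp before its start. A match is a run of letters and not a measured binding site.

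Mean Rad52 signal at the members lay between -0.33 and 0.28 in ∆rad3 and between -0.45 and 0.43 in WT, and none of the 8 genes was called different between strains. A gene window is the annotated gene with 500 bp on each side, as the mean of its probes. For suc22 and rad21, set coordinates stand in for the annotated gene. The limma fit covered 10390 such windows at once with Benjamini-Hochberg adjustment. At an adjusted p under 0.05, 0 of 10390 windows (0%) differed between strains, and 0 of the 8 members. At an unadjusted p under 0.05 the count was 911 windows (8.77%) and again 0 of the 8 members. With the replicate number, which marks the slide, as a block, 75 windows (0.722%) were higher in ∆rad3 and none was a member, where the lowest adjusted p was 0.400, at nrm1. A window counted as enriched if its mean log2 was 0.5 or more and its adjusted p under 0.05, which held for 322 windows in ∆rad3 (3.1%) and 422 in WT (4.06%) and for no member. The difference, ∆rad3 minus WT, was below 0 in 6 of 8 members, where 45.7% of all windows were below 0. The members' median difference was -0.12, beside 0.02 over all windows, and with the library labelled WT replicate 2 left out it was -0.12 with 5 of 8 below 0. With normexp background correction 5 of 8 were below 0 and the median was -0.00, beside 0.07 over all windows. The median is thus not kept clearly below 0 under that choice, while it stays under that of all windows.

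**Figure D1:**
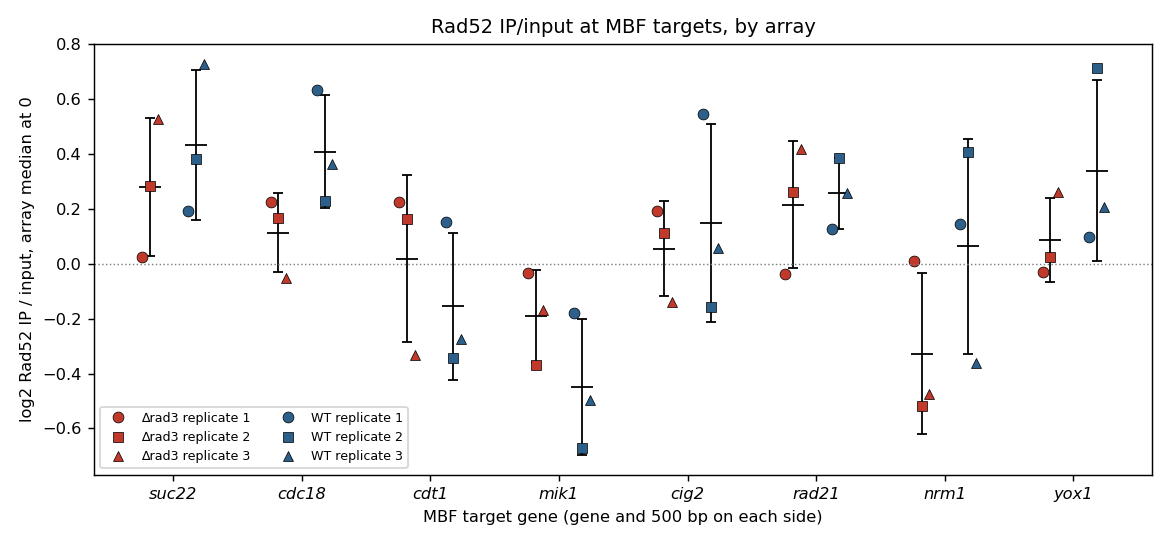
Mean log2 Rad52 IP over input in the window of each of 8 MBF targets (vertical axis, array median at 0), with ∆rad3 arrays (red) left of WT arrays (blue), marker shape for the replicate, and bars for the mean and SD of 3 arrays. The groups overlap at every gene except cdc18, where the highest ∆rad3 array is at 0.23 and the lowest WT array also rounds to 0.23, and no mean reaches 0.5.

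The deoxynucleotide supply was represented by suc22, the small subunit of ribonucleotide reductase, the enzyme that hydroxyurea inhibits (chrII:3721623-3723072, plus strand, 8 probes). Its window was set at chrII:3721501-3723500. It was at 0.02, 0.28 and 0.53 in ∆rad3 replicates 1 to 3, against 0.19, 0.38 and 0.73 in WT replicates 1 to 3. suc22 had the highest mean of the members in both strains, 0.28 ± 0.25 in ∆rad3 and 0.43 ± 0.27 in WT (SD, n = 3 each), and the groups overlapped. In log2, replicate 3 was the highest in each strain and replicate 1 the lowest. The arrays differ in spread, however. The SD over probes was 0.36, 0.71 and 0.72 on WT replicates 1 to 3, and 0.38, 0.43 and 0.64 on ∆rad3. By percentile among all windows, WT replicate 2 was the lowest of its strain for suc22 (82.6, 76.3 and 97.3). The strain difference was -0.16 (SE 0.19, limma adjusted p = 0.834), and -0.18 with the library labelled WT replicate 2 left out. It moved more with other arrays, to -0.0072 without WT replicate 3, -0.028 without ∆rad3 replicate 1, and -0.28 without WT replicate 1 or without ∆rad3 replicate 3. Over the annotated span of suc22 (9 probes) it was -0.040. The WT mean there was 0.35, below cdc18 at 0.41, so the first rank in WT rests on the set window. The level of suc22 against the array median had a limma adjusted p of 0.278 in ∆rad3 and 0.0634 in WT. With the replicate block it was 0.102 in ∆rad3 and 0.0171 in WT, which passes the threshold at a mean under the 0.5 set for enrichment. With that block 4299 of 10390 windows had a WT level at an unadjusted p under 0.05, 2045 above the array median and 2254 below. The share after adjustment was not counted, so how common such a pass is among all windows was not established. With normexp the WT level of suc22 was -0.092 (limma adjusted p = 0.631). Among all windows, without normexp, suc22 stood at percentiles 51.0 to 89.8 on ∆rad3 arrays and 76.3 to 97.3 on WT arrays.

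Origin licensing was represented by cdc18 and cdt1, whose products together load the MCM helicase at origins. cdc18 (chrII:2215955-2217984, minus strand, 10 probes) was at 0.23, 0.17 and -0.05 in ∆rad3, against 0.63, 0.23 and 0.36 in WT. It was the member whose groups did not overlap, as in 5.79% of all windows in that direction (9.69% in the other, with no member), but the highest ∆rad3 array and the lowest WT array both round to 0.23. The means were 0.11 ± 0.15 in ∆rad3 and 0.41 ± 0.21 in WT, a difference of -0.29 (SE 0.17), with a limma p of 0.106 and an adjusted p of 0.640. With the library labelled WT replicate 2 left out, the difference was -0.38, with a limma p of 0.0392 and an adjusted p of 0.492, so the gene remained short of the threshold. With normexp the difference was -0.00020. Its level against the array median had a limma adjusted p of 0.612 in ∆rad3 and 0.0501 in WT, and with the replicate block 0.514 in ∆rad3 and 0.0253 in WT. The count of windows given for suc22 with that block stands beside this too. The WT level with normexp was 0.16 (limma adjusted p = 0.562). On the 3 slides the differences were -0.41, -0.06 and -0.41. In all, 3 of the 8 members (suc22, cdc18 and nrm1) were lower in ∆rad3 on every slide, where 16.3% of windows were, and 1 (mik1) was higher on every slide, where 22% were.

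Within the cdc18 window both probes past the 3′ end were lower in ∆rad3. They averaged 0.18, 0.30 and 0.08 in ∆rad3, against 0.90, 0.78 and 0.63 in WT, with no overlap. This stretch was singled out after its values were seen, and the probe at chrII:2217187-2217246 in the coding span had a wider difference of -0.79. The stretch overlaps the convergent gene arc1, a subunit of the Arp2/3 actin-nucleating complex. One of the probes (chrII:2215485-2215543) was at -0.01, -0.02 and 0.17 in ∆rad3 and at 0.74, 0.56 and 0.75 in WT, a difference of -0.64 with a limma p of 0.0487 that became 0.951 after adjustment over 38566 probes. Leaving out the library labelled WT replicate 2, the difference was -0.70 there and -0.94 at the coding probe. Upstream of cdc18, where the boxes printed above lie, the 2 probes averaged 0.59 ± 0.17 in ∆rad3 and 0.61 ± 0.44 in WT, with replicate 2 of each strain resting on 1 probe. The probe beside those boxes, 18 bp before the start, was measured on 2 arrays of each strain only, at 0.52 and 0.34 in ∆rad3 and at 0.69 and 1.53 in WT.

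cdt1 (chrII:477392-478738, plus strand, 8 probes) was at 0.22, 0.16 and -0.33 in ∆rad3, against 0.15, -0.34 and -0.27 in WT. The lowest array of ∆rad3 was close to the 2 lowest of WT, and the groups overlapped. The means were 0.02 ± 0.31 in ∆rad3 and -0.16 ± 0.27 in WT, a difference of 0.17 (SE 0.20, limma adjusted p = 0.820), and 0.08 with the library labelled WT replicate 2 left out. The probe 124 bp before the start, next to the printed cluster of 4 boxes, was at 0.41, 0.45 and -0.33 in ∆rad3 and at 0.14, -1.14 and -0.58 in WT, a difference of 0.71 with a limma p of 0.0846 and an adjusted p of 0.951. That difference was 0.40 without the library labelled WT replicate 2.

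The regulators of Cdc2, the cyclin-dependent kinase, were mik1 and cig2. Mik1 holds Cdc2 inactive by tyrosine phosphorylation, and Cig2 is the B-type cyclin that promotes S phase. mik1 (chrII:221298-224117, plus strand, 15 probes) was at -0.03, -0.37 and -0.17 in ∆rad3, against -0.18, -0.67 and -0.50 in WT. All 6 arrays were below their median, and on each slide the ∆rad3 array was the higher one. The means were -0.19 ± 0.17 in ∆rad3 and -0.45 ± 0.25 in WT, a difference of 0.26 (SE 0.18, limma adjusted p = 0.696), and 0.15 with the library labelled WT replicate 2 left out. Against the array median, the WT level passed the threshold (limma adjusted p = 0.0451), as did 5.49% of windows, and the ∆rad3 level did not (adjusted p = 0.411). With the library labelled WT replicate 2 left out, the WT level was -0.34 and the adjusted p 0.178, so the call was lost.

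Single probes of mik1 spread widely. The probe at chrII:221857-221916, in the coding span, was at 0.21, -0.17 and 0.11 in ∆rad3 and at -0.37, -2.37 and -0.25 in WT, without overlap. Its difference of 1.04 had a limma p of 0.0467 and an adjusted p of 0.951. The value of -2.37 came from the library labelled WT replicate 2, and without that library the difference was 0.36. The annotated start of mik1 abuts ssb1, a divergent gene for the large subunit of the single-strand DNA-binding protein RPA, so the upstream probes of mik1 lie inside ssb1.

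cig2 (chrI:2709782-2714162, plus strand, 21 probes) was at 0.19, 0.11 and -0.14 in ∆rad3, against 0.55, -0.16 and 0.06 in WT. Its means were 0.05 ± 0.17 in ∆rad3 and 0.15 ± 0.36 in WT, and the groups overlapped. The difference of -0.09 (SE 0.20, limma adjusted p = 0.906) was -0.25 with the library labelled WT replicate 2 left out and turned to 0.10 without WT replicate 1. The annotated 3′ end of cig2 overlaps the convergent gene pmc1, and 8 of its 21 probes lie in the 3′ UTR.

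Chromosome cohesion was represented by rad21, the cleavable subunit of cohesin (chrIII:1342893-1346239, plus strand, 12 probes). Its window was at -0.04, 0.26 and 0.42 in ∆rad3, against 0.13, 0.39 and 0.26 in WT. The groups overlapped and the means were close, 0.21 ± 0.23 in ∆rad3 and 0.26 ± 0.13 in WT. The difference of -0.04 (SE 0.17, limma adjusted p = 0.958) was the one nearest to 0 among the members, and it was 0.02 with the library labelled WT replicate 2 left out. Over the annotated span of rad21 (13 probes) it was -0.062, and suc22 over its own span was then nearer, at -0.040. rad21 carried 2 boxes, 13 to 25 bp before its start. The probe centred 25 bp into the gene was at 0.45, 0.19 and 0.33 in ∆rad3, against -0.08, 0.36 and -0.71 in WT.

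The feedback arm of the pathway consists of nrm1 and yox1, which encode the 2 MBF corepressors. nrm1 (chrII:4285944-4288583, plus strand, 13 probes) was at 0.01, -0.52 and -0.48 in ∆rad3, against 0.15, 0.41 and -0.36 in WT. It had the lowest mean of the members in ∆rad3, -0.33 ± 0.29, beside 0.06 ± 0.39 in WT. The difference of -0.39 was the most negative of the 8 (SE 0.22), with a limma p of 0.111 and an adjusted p of 0.648. On the slides it was -0.13, -0.93 and -0.11, and was widest on slide 2, which carries the library labelled WT replicate 2. Without that library it was -0.22 (adjusted p = 0.815). The probe 29 bp into the gene, near the printed boxes, was at 0.07, -0.62 and -0.54 in ∆rad3 and at 0.17, 0.86 and 0.26 in WT, without overlap, and its limma p of 0.0337 became 0.951 after adjustment. Its difference was -0.79, and -0.58 without that library.

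yox1 (chrII:1648232-1648840, plus strand, 6 probes) was at -0.03, 0.03 and 0.26 in ∆rad3, against 0.10, 0.71 and 0.21 in WT. The highest of the 6 values came from the library labelled WT replicate 2, and the groups overlapped. Its means were 0.09 ± 0.15 in ∆rad3 and 0.34 ± 0.33 in WT, a difference of -0.25 (SE 0.19, limma adjusted p = 0.715). Without that library the difference was -0.07.

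The order of mean levels was suc22, rad21, cdc18, yox1, cig2, cdt1, mik1 and nrm1 in ∆rad3, and suc22, cdc18, yox1, rad21, cig2, nrm1, cdt1 and mik1 in WT. Neighbours in these orders did not differ by more than the larger of their SDs, except that cdt1 and mik1 in WT were 0.29 apart beside an SD of 0.27. With the library labelled WT replicate 2 left out, cdc18 led in WT at 0.50, suc22 followed at 0.46, and mik1 remained lowest at -0.34. With the annotated spans of suc22 and rad21, cdc18 also led in WT, at 0.41, and suc22 followed at 0.35.

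At the level of single probes, the 93 members comprised 13 upstream, 8 in 5′ UTRs, 41 in coding spans, 19 in 3′ UTRs and 12 downstream. Of these, 84 were measured on all 6 arrays and entered the probe fit. The limma fit called 2 of 38566 probes (0.00519%) and none of the members, whose lowest adjusted p was 0.951. With the replicate block it called 5 probes (0.013%), none of them a member. At an unadjusted p under 0.05 it found 4 of the 84, where 4.85% of all probes passed. Leaving out the library labelled WT replicate 2, it called 0 of 38681 probes, and at an unadjusted p under 0.05 it found 2 of the 84, where 5.17% of all passed. All 3 ∆rad3 arrays were below all 3 WT arrays at 6 member probes, 3 of them in cdc18, 2 in nrm1 and 1 in rad21, as at 5.19% of probes. All 3 ∆rad3 arrays were above at 2 member probes, both in mik1, as at 5.38% of probes.

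**Figure D2:**
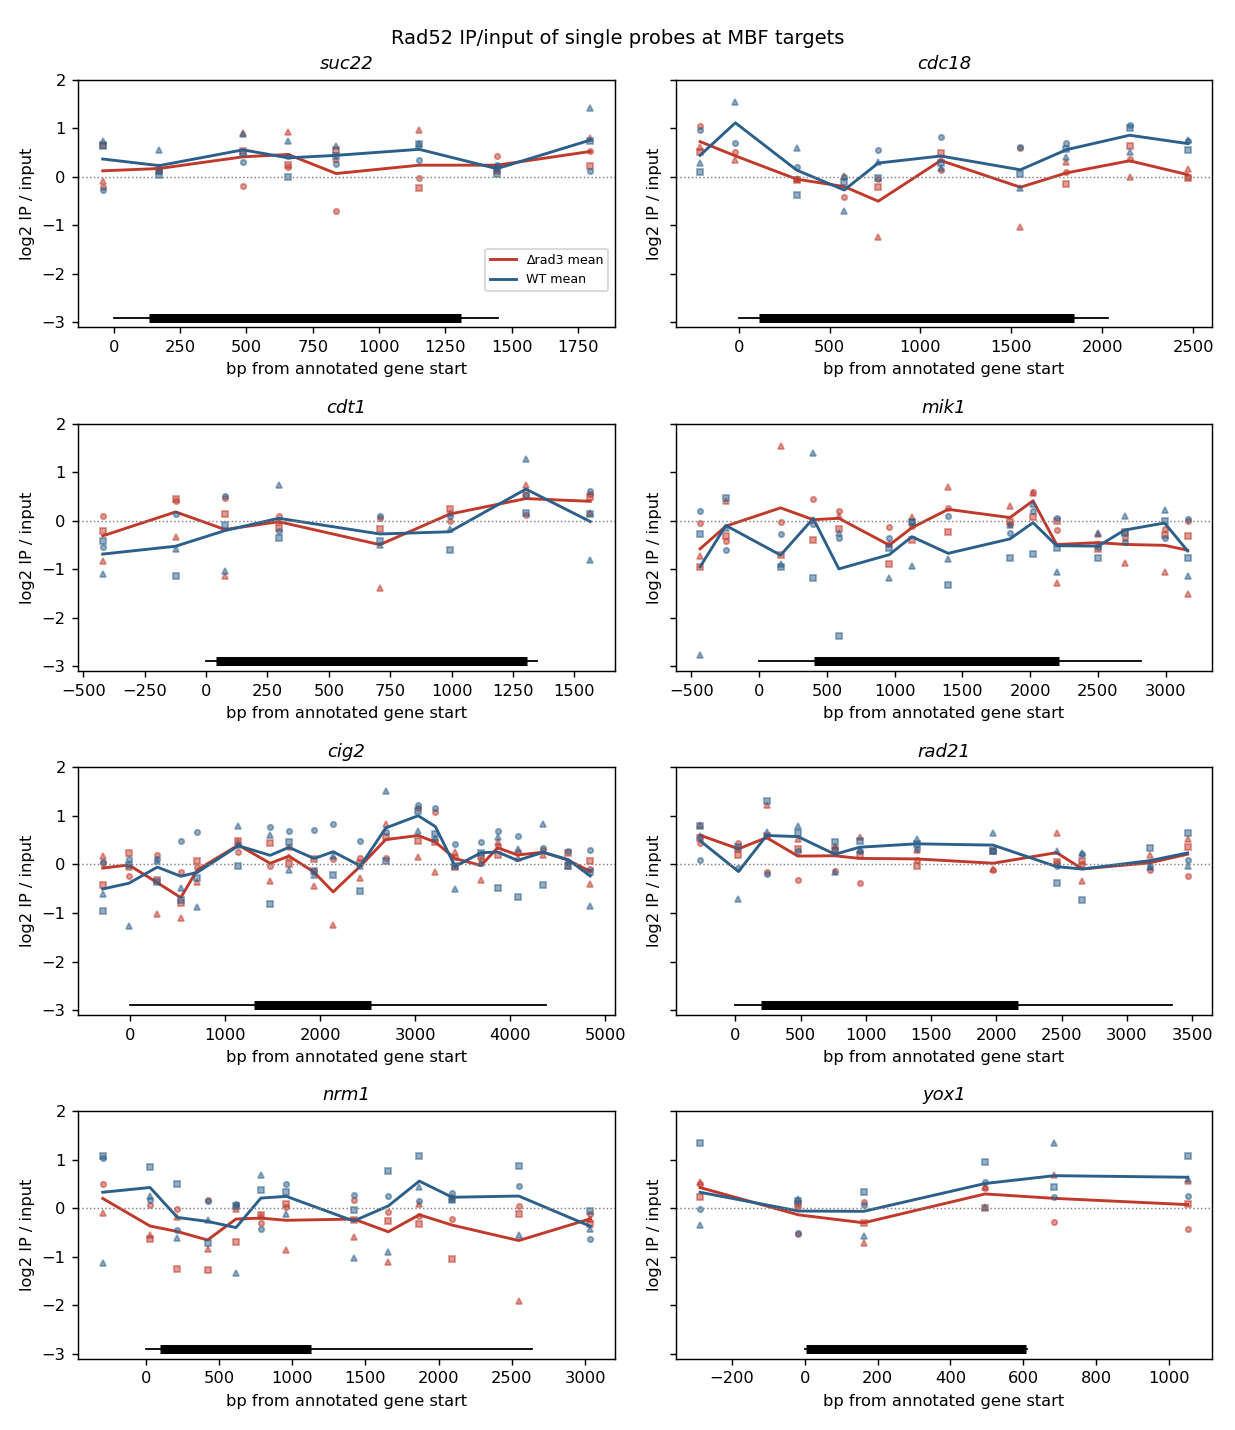
Log2 Rad52 IP over input of each member probe (vertical axis) by its distance in bp from the annotated gene start (horizontal axis, on the gene's own strand). Lines join the mean of ∆rad3 (red) and of WT (blue), points are single arrays, circles, squares and triangles are replicates 1, 2 and 3, and the black bar marks the gene (thick, from start to stop codon). The strains overlap at most probes. Among probes measured on all 6 arrays, mean differences reach 1.04 in mik1, -0.92 in nrm1 and -0.79 in cdc18.

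Because most members carry ACGCG there, the signal in the 500 bp before the start was also set against the gene span. suc22 and mik1 have none in that stretch, and the 9 matches in the 5′ UTR of mik1 count to its gene span. This contrast could be fitted for 7 members, since nrm1 lacked its upstream probe in ∆rad3 replicate 2. Of the 7, 4 had more mean signal upstream than over the gene in ∆rad3 and 2 in WT, where 56.8% and 48.8% of 7843 genes did. Upstream minus gene span was higher in ∆rad3 than in WT at 6 of the 7, where 56.5% of all genes were, with a median difference of 0.26, beside 0.06 over all genes. mik1 was lower, at -0.18. With the library labelled WT replicate 2 left out, the contrast was higher at 7 of the 7, where 56.5% of all genes were, with a median of 0.33, beside 0.06. In other alternatives the members that were lower varied. With normexp it was lower at suc22 (-0.23) and mik1 (-0.011), and higher at the rest of the 7. Without WT replicate 3 mik1 alone was lower (-0.72), as with all 6 arrays. Without WT replicate 1 mik1 (-0.16) and yox1 (-0.0038) were lower. The limma fit called 0 of 7843 genes (0%) and no member. The widest differences were at cig2 (0.57, with a limma p of 0.0877) and at cdt1 (0.56, with a limma p of 0.0698), and both had an adjusted p of 0.927. For cdt1 the values were 0.11, 0.01 and -0.25 in ∆rad3, against -0.41, -0.51 and -0.90 in WT. Every ∆rad3 array was above every WT array there. The share of the 7843 genes separated this way was not counted, so the separation is a description only. For cig2 they were -0.35, -0.22 and 0.22 in ∆rad3, against -0.54, -0.35 and -1.17 in WT, and the groups met at their edge. These came from 2 upstream probes a gene.

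The input DNA, the denominator of the ratio, differed far more between genes than between strains. suc22 input was at 0.87, 0.80 and 1.05 in ∆rad3, against 0.80, 0.74 and 0.90 in WT (log2, array median at 0). rad21 input was at 0.80, 0.62 and 0.73 in ∆rad3, against 0.74, 0.71 and 0.72 in WT. nrm1 was the lowest, at -1.0, -0.81 and -0.35 in ∆rad3, against -0.90, -0.74 and -0.31 in WT. The members with the highest input, suc22 and rad21, also had the highest IP over input in ∆rad3, and nrm1 and mik1, with the lowest input, had the lowest. In WT the order matched less, with rad21 below cdc18 and yox1, and nrm1 above cdt1 and mik1. How far this relation enters the levels was not tested. Between strains, limma on the input called 0 of 10390 windows (0%), 30 windows passed an unadjusted p under 0.05, and the members' adjusted p was 1.00.

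**Figure D3:**
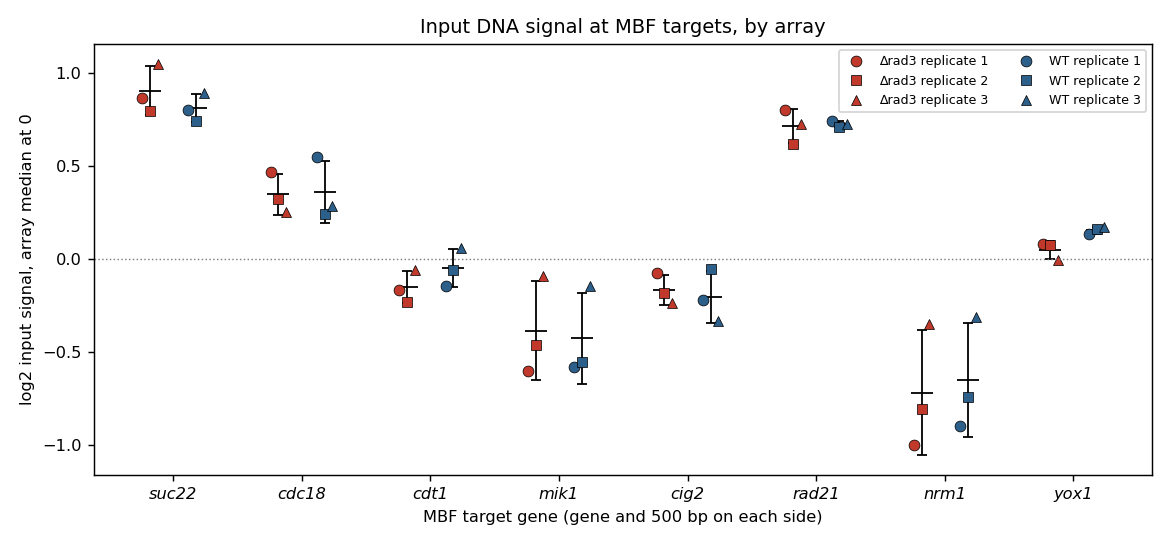
Mean log2 input signal in the window of each of 8 MBF targets (vertical axis, array median at 0), with ∆rad3 arrays (red) left of WT arrays (blue), marker shape for the replicate, and bars for the mean and SD of 3 arrays. Genes range from -1.0 to 1.05 while the strains lie together at each gene.

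Members were also placed against AT-rich islands, stretches of intergenic DNA where fission yeast origins often lie. Of 440 islands found in the sequence, none overlapped a member's window (0 of 8, where 13.3% of windows overlapped one). suc22 was nearest, with an island 251 bp from its window, followed by yox1 at 932 bp, rad21 at 3801 bp and cig2 at 4139 bp. The other gaps ran from 16498 bp at mik1 to 70368 bp at nrm1. The A+T content of the members' windows was 62.0% to 64.6%, beside a median of 64.7% over all windows.

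Windows with the most similar pattern were looked up for suc22 and rad21, as the smallest root mean square difference over the 6 arrays among 10384 windows. For suc22 these were SPNCRNA.1647 and rex4, which share their probes, at 0.0949, and mge1 at 0.100. rex4 was at 0.07, 0.26 and 0.54 in ∆rad3, against -0.01, 0.28 and 0.68 in WT. For rad21 they were gna1 at 0.0508, SPNCRNA.5875 at 0.0604 and vps8 at 0.0756. This likeness is over 6 values each and is a description only.

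In lists of other genes of the pathway and of S phase, 0 genes were called different between strains. The 8 further reported MBF targets (ssb1, cdt2, tos4, msh6, psm3, ams2, dut1 and csx2, annotated as cnt5) had a median difference of -0.10, with 3 higher and 5 lower in ∆rad3. The highest was cdt2, a specificity factor of the Cul4 ubiquitin ligase, at 0.39, and the lowest was the mismatch-repair gene msh6, at -0.42. Of 7 MBF subunits and checkpoint regulators 5 were used, without rad3 itself, whose deleted DNA gives no ratio, and their median was -0.02. There the DNA-binding subunit res2 was highest at 0.31 and the coactivator rep2 lowest at -0.30. Of the 3 genes for turnover of Spd1, a ribonucleotide reductase inhibitor, cdt2 and ddb1 were measured, at 0.39 and 0.50. ddb1 was at 0.26, 0.16 and 0.19 in ∆rad3, against -0.06, -0.75 and -0.07 in WT. The 11 origin-licensing genes had a median of -0.04, from -0.33 at mcm3 to 0.40 at mcm6. The medians were -0.11 for the further targets, -0.03 for the regulators, 0.26 for Spd1 turnover and 0.02 for licensing with the library labelled WT replicate 2 left out. The named extremes then came closer to 0, at 0.25 for cdt2, -0.30 for msh6, 0.23 for res2, -0.08 for rep2, 0.27 for ddb1, -0.15 for mcm3 and 0.20 for mcm6.

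Core histone genes are another group transcribed in S phase. Of 9 genes 6 were measured, over 27 probes that divergent pairs share, so the 6 windows are not independent. Their median difference was -0.49, with 6 of 6 lower in ∆rad3, where 45.7% of all windows were. htb1, histone H2B, was at 0.72, 0.34 and 0.12 in ∆rad3, against 1.10, 1.26 and 0.82 in WT, without overlap, as in 5.79% of all windows. hta1, htb1 and hhf2 were enriched in WT (3 of 6, with WT means of 0.84, 1.06 and 0.51), as were 4.06% of all windows. None was enriched in ∆rad3, where 3.1% of all windows were, and the strain difference itself was not called at any of them. With normexp or with a trended robust variance 0 of 10390 windows were enriched in WT, so these 3 calls were lost. With the library labelled WT replicate 2 left out, the histone median was -0.36, again with 6 of 6 lower. The difference between the histone and MBF lists was not tested.

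**Figure D4:**
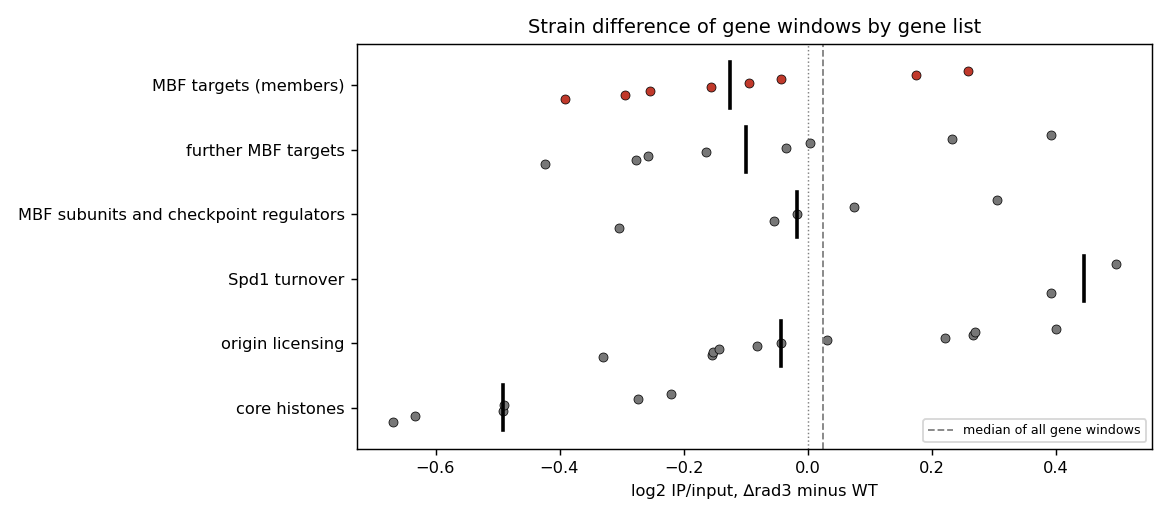
Difference in log2 IP over input, ∆rad3 minus WT (horizontal axis), of each gene window (points) in 6 gene lists (rows), with a black bar for the list median and a dashed line for the median of all windows. The MBF targets scatter around 0 from -0.39 to 0.26, and the 6 histone windows lie below 0.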

How the data were processed

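The deposited files are output of Agilent Feature Extraction 10.7.3.1 for 2-colour arrays, named in the submitters' processing notes. Per the file headers, the deposited intensity is background-subtracted and dye-normalized within each array. The deposited log10 ratio, red over green, was used only as a check of the log2 ratio. Red is input and green IP on all arrays, per the labels, so dye bias cannot be told apart from IP over input. The series' design calls the input reciprocally labelled, which may mean opposite dyes or a dye swap, and the labels give no swap. Directions follow the labels, and correlations between arrays were all above 0. The labels carry a chromatin protocol for WT replicates 1 and 2 and an RNA text for the others.

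Here log2 of IP over input was centred on each array's median, without control spots or outlier spots (4 to 3535 an array). Probes needed an input well above background on 3 of 6 arrays, and windows at least 2 probes. suc22 and rad21 were taken by set coordinates close to the annotated gene. Strains were compared with limma 3.58.1 in R 4.3.3, with Benjamini-Hochberg adjustment over all features. Median input was 5.04 to 20.0 times local background. On simulated data for 10390 gene windows, 66 of 100 changes of log2 1 and 95 of 100 of log2 2 were recovered, with 10 false calls. Changes as small as those of the members' windows, the widest being -0.39 at nrm1, were not simulated. The simulated scatter was independent between arrays, without a shared slide. Recovery at the size of the members' differences is therefore not known.

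The files use the build Spombe:NCBI:Feb2002. Gene positions and sequences come from ASM294v3, after probe length was matched to base composition: 107 of 107 windows of 100000 bp fitted within 20 bp, and 18 of 19 beyond 3.7 Mb on chromosome I were shifted. Islands were 1000-bp windows of at least 72% A+T, merged, at least 50% outside coding sequence.

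Replicate numbers mark both the slide and the scan day, per the file headers, so these cannot be told apart. The headers also name a ChIP extraction protocol on both replicate 2 arrays and a CGH protocol on the others. Deviations of same-numbered arrays from their strain means correlated at 0.561, 0.129 and 0.265, against -0.460 to 0.196 for other pairs between strains. The highest of those, ∆rad3 replicate 3 with WT replicate 2, was above the replicate 2 pair. The number was used as a block in an alternative fit. Named were all 10 members and, in the further lists, the highest and lowest difference, with histone genes enriched in a strain and single probes added after their values were seen. Members and lists were chosen with earlier results of these data known. Other alternatives were leaving out each array, background correction, array scaling, variance trend, probe filters, flank length and the annotated span of suc22 and rad21.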

Additional observations from a re-analysis of the deposited data

How the results depend on the processing

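No member was called different between strains under any alternative run, and the lowest adjusted p was 0.167, at cdc18 with the replicate block without the library labelled WT replicate 2, an alternative chosen after seeing the data. Signs turned at 5 members: suc22 with normexp (0.35), cdt1 without flanks (-0.020), mik1 with normexp (-0.067), cig2 without WT replicate 1 (0.10) or ∆rad3 replicate 3 (0.0026), and rad21 without the library labelled WT replicate 2 (0.022) or ∆rad3 replicate 1 (0.083) and with normexp (0.29). With 1 array left out, cig2 ranged from -0.25 to 0.10 and rad21 from -0.14 to 0.083. The sign was kept at cdc18, nrm1 and yox1 under every alternative run, although cdc18 was at -0.00020 and yox1 at -0.0094 with normexp. As enriched in WT, suc22 was called without WT replicate 1 (0.56, limma adjusted p = 0.0293), as were 1023 of 10390 windows in that fit. cdc18 was called with that block and library choice (0.51, limma adjusted p = 0.0108), as were 345 of 10390 windows. The WT level of mik1 below the median was called in 7 of 16 alternatives. Windows that differed between strains numbered 75 with the replicate block, 132 with normexp, 132 with arrays scaled to one spread, 5 with a trended robust variance, 1 with 250-bp flanks and 354 with the block without the library labelled WT replicate 2, against 0, and 0 when any array was left out. Enriched windows in ∆rad3 numbered 573 with the block, 712 scaled, 103 with the trend, 60 without flanks, 669 with the block without that library, and 6 to 607 with 1 array left out, against 322. Those in WT numbered 0 with normexp, 0 with the trend, 150 without flanks and 96 to 1023 with 1 array left out, against 422. Probes that differed numbered 5 with the block, 31 with normexp, 46 scaled, 0 with the trend, 0 with outlier spots kept, 154 with the block without that library and 0 with any array left out, against 2. Upstream minus gene span gave 2 genes with the block, 6 with normexp, 2 scaled, 1 with the trend and 0 to 3 with 1 array left out, against 0. Input gave 0 throughout. The cause of these shifts was not tested. The 3 arrays a strain limit the precision.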
